A study of Mus musculus with 16 samples.

Results

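The homeostatic microglia identity genes described here are P2ry12, P2ry13, Tmem119, Cx3cr1, Sall1, Siglech, Gpr34, Fcrls and Olfml3. They were chosen by symbol, as known identity genes, with earlier results of these data known, and are 9 of the 57010 genes in the count table of olfactory bulb microglia. All 9 passed a filter that asked for 5 counts or more in 8 of 16 libraries, as did 18227 genes in all. Microglia were taken with CD11b magnetic beads from olfactory bulbs of mice aged 2 months, and total RNA depleted of ribosomal RNA was sequenced in 16 libraries. The 4 groups hold 4 libraries each, namely WT_f and WT_m from female and male C57BL/6 J mice and KI_f and KI_m from female and male APP-NL-G-F mice. In these knock-in mice the animal's own App gene carries the NL, G and F changes in a humanised amyloid-beta sequence, so that App stays under its own promoter in every cell type. All groups share the C57BL/6 J background, and cells other than microglia that carry CD11b, such as border macrophages, also bind the beads. The labels do not tie a library to 1 mouse, so the p-values measure the spread between these libraries. Levels are in CPM, the count scaled to a common library size by TMM, which sets library sizes by the bulk of genes.

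Homeostatic genes are those that microglia of the healthy adult brain express strongly, and many of them, though not all, are weak or absent in other macrophages. Their expression is kept up by signals of the brain such as TGF-beta and by transcription factors including PU.1, IRF8 and SALL1, and it is known to fall when microglia take on disease-associated states near plaques or lose contact with the brain. The comparison of KI with WT asks whether the identity programme differed at the age at which the study places the onset of axon loss in the olfactory bulb.

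No member of the programme passed the test between genotypes. None of the 9 genes was called in KI against WT by edgeR's quasi-likelihood test with sex as a term, where a call needs both an FDR under 0.1 and a log2 fold change beyond 0.5 in size, and 8.64% of all tested genes were called. At an FDR below 0.1 alone the count was also 0 of 9, against 14.8% of all genes, and at an unadjusted p below 0.05 it was 1 of 9, against 24.1%. The log2 fold changes ran from -0.07 for Siglech to 0.11 for P2ry13, with a median of 0.06, against -0.0014 over all tested genes. Under a scaling of the libraries by 21 other microglia genes in place of TMM, 0 members were called, as were 1339 of 18227 genes in all. There 3 of 9 had an FDR below 0.1 alone (Cx3cr1 0.0385, P2ry12 0.0972 and Gpr34 0.097) and 5 of 9 an unadjusted p below 0.05. The shares of all genes under this scaling are not given for those limits. The 21 genes themselves had a median log2 fold change of -0.05 with TMM, and scaling by them raised the median of all genes by 0.039. With TMM the 95% interval of every member lay within 0.22 of 0, so changes of 0.5 or more on the log2 scale lay outside the intervals of all 9. DESeq2's Wald test and limma voom also called 0 of the 9, and each had 1 member at an unadjusted p below 0.05. In bulk samples fewer microglia among the sequenced cells and less RNA of a gene per microglial cell cannot be told apart. This holds for every level and fold change with TMM here.

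**Figure D1:**
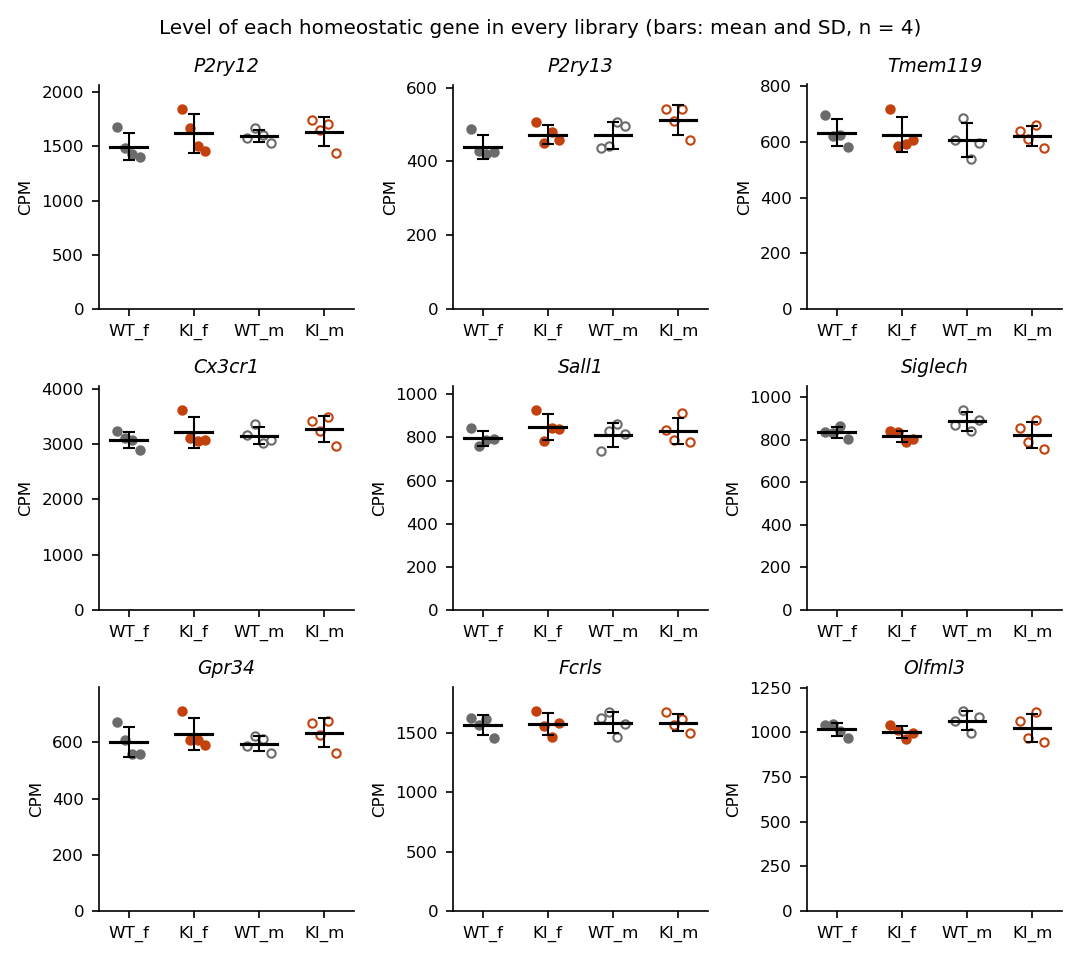
CPM of each gene (vertical axes, from 0) in every library of the 4 groups, with filled points for females, open points for males, grey for WT and orange for KI; black lines give the mean and SD of 4 libraries. WT and KI points overlap for all 9 genes, and Cx3cr1 is the highest in level, at a mean of 3177 CPM.

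The 4 G protein-coupled receptors come first. P2ry12 encodes the ADP receptor by which microglia extend their processes towards ATP and ADP released from cells, and its neighbour P2ry13 encodes a second ADP receptor that acts on microglial surveillance. P2ry12 lies on the minus strand of chromosome 3 (GRCm39, chr3:59123682-59170429), and P2ry13 follows it on the same strand at chr3:59114539-59118304, with 5377 bases between the genes. The pair sits within the Med12l gene, which runs on the plus strand and shares 294 exonic bases with P2ry12, or 9.17% of the exonic bases of P2ry12, and 0 with P2ry13. The strand setting of the counting is not given in the sources used here, so reads in those bases cannot be told apart. Because the pair are neighbours, the 250 bases before the RefSeq start site of each are shown. The letters GAGGAA, a form of the site that PU.1 binds, are in capitals where they occur on either strand. Shorter forms of the site were not searched, so an unmarked stretch may still hold one. The P2ry12 stretch (chr3:59170407-59170656) and the P2ry13 stretch (chr3:59118304-59118553) are both read on the minus strand.
P2ry12: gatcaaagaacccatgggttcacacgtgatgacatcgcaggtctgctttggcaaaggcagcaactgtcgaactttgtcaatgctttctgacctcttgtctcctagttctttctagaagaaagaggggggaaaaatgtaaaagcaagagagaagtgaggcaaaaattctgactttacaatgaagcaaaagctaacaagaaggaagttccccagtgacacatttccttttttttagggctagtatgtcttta
P2ry13: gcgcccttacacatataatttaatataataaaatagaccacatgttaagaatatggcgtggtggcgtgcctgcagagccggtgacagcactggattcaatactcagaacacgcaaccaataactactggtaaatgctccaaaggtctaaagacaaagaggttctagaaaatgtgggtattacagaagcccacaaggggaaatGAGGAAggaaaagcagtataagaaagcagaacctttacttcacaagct

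The RefSeq table holds 9 promoters for 7 of the 9 genes, all of them but Tmem119 and Gpr34. The table is of GRCm38, and the coordinates here are where each sequence matched GRCm39 exactly and once. The letters GAGGAA were in 2 of the 9, those of P2ry13 and Fcrls, and in 23.3% of 32851 promoters of the same length. The longer form GAGGAAGT, searched first on both strands, was in none of the 9 and in 2.44% of all promoters; GAGGAA lies within it and was searched after that.

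P2ry12 stood at 1676, 1486, 1434 and 1398 CPM in the WT_f libraries 1 to 4 and at 1575, 1672, 1609 and 1535 CPM in WT_m. In KI_f it stood at 1849.7, 1672, 1502 and 1461 CPM, and in KI_m at 1743, 1652, 1709 and 1443 CPM. The genotypes overlapped: KI_f 1 was the highest of the 16 libraries and WT_f 4 the lowest, and 5 of 8 KI libraries lay within the WT range. The log2 fold change was 0.07 (SE 0.0568, 95% interval -0.05 to 0.19, FDR = 0.471), and 0.05 without KI_f 1. An exact permutation test that exchanged genotype within sex gave p = 0.238 (two-sided, n = 8 and 8).

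P2ry13 was the member with the smallest p. It stood at 487, 427, 419 and 425 CPM in WT_f and at 435, 443, 506 and 496 CPM in WT_m. In KI_f it stood at 505, 449, 479 and 457 CPM, and in KI_m at 543, 509, 543 and 457 CPM. All 8 KI libraries lay above the WT median of 439 CPM, yet 5 of them lay within the WT range, whose top was set by WT_m 3. The mean was 455 ± 35.6 CPM in WT and 493 ± 38.1 CPM in KI (SD, 8 libraries each). The log2 fold change was 0.11 (SE 0.0501, 95% interval 0.01 to 0.22, FDR = 0.163, edgeR). The exact permutation test within sex gave p = 0.0408, where 4900 splits allow no p below 0.000408. Over 29 other settings, some of which read the main fit at other thresholds, P2ry13 had an FDR below 0.1 in 4. These were a minimum of 10 counts in every library (FDR = 0.0947) and the fits without KI_m 4 (0.0644), WT_f 1 (0.0775) or WT_m 3 (0.0828). The log2 fold changes there were 0.13 to 0.14. The largest log2 fold change of P2ry13 over all these settings was 0.15, under the threshold of 0.5.

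Cx3cr1, the receptor for the neuronal chemokine fractalkine, was the most abundant of the 9 (chr9:119877749-119898945). It stood at 3239, 3116, 3063 and 2894 CPM in WT_f and at 3152, 3356, 3014 and 3065 CPM in WT_m. In KI_f it stood at 3620.4, 3104, 3045 and 3063 CPM, and in KI_m at 3411, 3233, 3482 and 2967 CPM. A single library, KI_f 1, stood well above the other 3 of its group, and the genotypes overlapped in 5 of 8 KI libraries. The log2 fold change was 0.06 (SE 0.0487, FDR = 0.516). It was 0.04 without KI_f 1 and 0.09 under the scaling by other microglia genes (FDR = 0.0385), below the fold threshold in both.

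Gpr34, a receptor for lysophosphatidylserine (chrX:13489625-13507116), lies inside the Cask gene without sharing exonic bases with it. It stood at 672, 610.1, 559 and 560.4 CPM in WT_f and at 589, 621, 613 and 561 CPM in WT_m. In KI_f it stood at 713, 607, 609.5 and 592 CPM, and in KI_m at 671, 628, 677 and 564 CPM. Each female group had its highest value in library 1, as it had for P2ry12 and Cx3cr1. Its log2 fold change was 0.08 (SE 0.0534, FDR = 0.393), and 6 of 8 KI libraries lay within the WT range.

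The surface proteins follow. Siglech encodes a sialic acid-binding lectin that pairs with the adaptor DAP12 and that marks microglia among brain macrophages (chr7:55417926-55429195). It had the most negative estimate of the 9. Siglech stood at 838, 833, 863 and 804 CPM in WT_f and at 869, 942, 841 and 891 CPM in WT_m. In KI_f it stood at 839, 836, 788 and 803 CPM, and in KI_m at 854, 788, 894 and 758 CPM. The genotypes overlapped, with 2 of 8 KI libraries above the WT median, and the lowest value was in KI_m 4. The log2 fold change was -0.07 (SE 0.0415, 95% interval -0.15 to 0.02, FDR = 0.345), and the exact permutation p was 0.0804. The estimate was -0.04 without KI_m 4 or without WT_m 2 and -0.03 under the scaling by other microglia genes.

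Tmem119 encodes a transmembrane protein used as a marker that separates microglia from macrophages that enter the brain (chr5:113931781-113938577), and Fcrls encodes a scavenger receptor of the Fc receptor-like family (chr3:87156616-87181827). Tmem119 ranged from 538 to 699 CPM in WT and from 579.6 to 720.2 CPM in KI, with 7 of 8 KI libraries within the WT range. Fcrls ranged from 1452 to 1674 CPM in WT and from 1459.8 to 1686 CPM in KI, again with 7 of 8 within. These were the smallest differences among the 9, with log2 fold changes of 0.01 for Tmem119 (95% interval -0.11 to 0.13, FDR = 0.94) and 0.0031 for Fcrls (-0.09 to 0.09, FDR = 0.982).

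Sall1 encodes the zinc finger transcription factor that holds microglial identity and is nearly absent from other macrophages (chr8:89753863-89770823). It ranged from 736 to 864 CPM in WT and from 780.4 to 929 CPM in KI. Its log2 fold change was 0.06 (95% interval -0.04 to 0.16, FDR = 0.47), or 0.10 under the scaling by other microglia genes (FDR = 0.198), and 5 of 8 KI libraries lay above the WT median. The lncRNA Gm3134 on the other strand shares 9.95% of the exonic bases of Sall1, so part of its counts may belong to that gene. The shared parts are smaller for Cx3cr1 (1.67%, with Gm33858) and Olfml3 (2.01%, with Gm65812), and none was found for the other 5 genes.

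Olfml3 encodes a secreted glycoprotein of the olfactomedin family that is a direct target of TGF-beta signalling in microglia (chr3:103629538-103645322). Its level stood at 1040.0, 1048, 1009 and 967 CPM in WT_f and at 1063, 1121, 994 and 1083 CPM in WT_m. In KI_f it stood at 1039, 1013, 959.9 and 995 CPM, and in KI_m at 1062, 968, 1113 and 947 CPM. The pattern of high and low libraries followed that of Siglech, with WT_m 2 the highest and KI_m 4 the lowest of the 16 for both genes. The log2 fold change was -0.04 (95% interval -0.13 to 0.05, FDR = 0.629), between -0.048 (without KI_m 3) and -0.017 (without KI_m 2) with 1 library left out and -0.0032 under the scaling by other microglia genes.

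**Figure D2:**
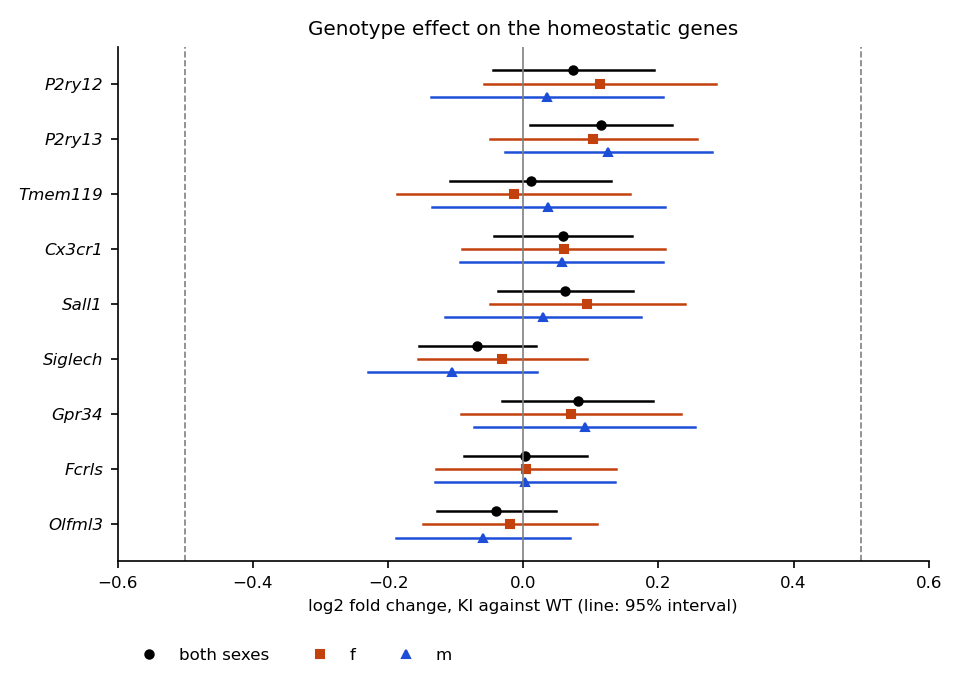
Log2 fold change of KI against WT (horizontal axis) for each gene, over both sexes (black circles), in females (orange squares) and in males (blue triangles); lines are 95% intervals from edgeR and dashed lines mark 0.5 in either direction. Every interval lies inside the dashed lines, and that of P2ry13 over both sexes, from 0.01 to 0.22, is the one that does not reach 0.

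Within the sexes, 0 of 9 genes were called in females, where 7.15% of all genes were, and 0 of 9 in males, where 0.252% were. These shares rest on single libraries: with 1 library left out the calls over all genes, 1304 in females, ran from 594 (without WT_f 1) to 2110 (without WT_f 4), and the 46 in males from 5 (without KI_m 2) to 603 (without KI_m 3), with 0 members called in each. The female estimates ran from -0.03 for Siglech to 0.11 for P2ry12 and the male ones from -0.10 for Siglech to 0.13 for P2ry13. At an FDR below 0.1 alone the counts were 0 of 9 in both (9.42% and 0.269% of all genes), and no member reached an unadjusted p below 0.05 within either sex (20.8% and 11.7%). The interaction of genotype with sex was called for 0 of 9 (0.0274% of all genes), none had an unadjusted p below 0.05 (5.94%), and its estimates ran from -0.05 for Tmem119 to 0.08 for P2ry12. Females against males gave 0 calls (0.0604% of all genes, and 0.0713% at an FDR below 0.1 alone). P2ry13, with a log2 fold change of -0.11 in females against males and an FDR of 0.753, was the 1 member at an unadjusted p below 0.05, as were 6.56% of all genes.

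Ratios of 2 members within a library do not depend on the scaling. All 36 log2 ratios overlapped between genotypes. The log2 CPM values of all 9 members overlapped too, and those of 1.29% of all tested genes did not. That share is of scaled levels and not of ratios. The ratio of P2ry13 to Siglech differed most between genotypes. It ran from -1.09 to -0.73 in WT and from -0.90 to -0.63 in KI, with a difference of 0.18, and all 8 KI libraries lay above the WT median. In 15 of the 36 ratios all 8 KI libraries lay on 1 side of the WT median, and 10 of these were among the 14 ratios of Siglech or Olfml3 with another member. In those 10 the other member, P2ry12, P2ry13, Cx3cr1, Sall1 or Gpr34, was higher relative to Siglech or Olfml3 in KI. In the rest of the 15, Tmem119 was lower in KI relative to Cx3cr1, Sall1 and Gpr34. P2ry13 was higher relative to Fcrls, and Siglech was lower relative to Olfml3. The same count was not made for ratios of other genes, and the 36 ratios share members, so they are not separate results. Siglech and Olfml3 also varied alike, so their ratios to the same member partly repeat each other. The ratio of Cx3cr1 to Siglech, for example, was 1.86 ± 0.0511 in WT and 1.98 ± 0.0672 in KI (mean and SD on the log2 scale). The ratio of Siglech to Olfml3 was the steadiest, with an SD of 0.0305 over the 16 libraries.

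Together the 9 genes took 1.0% to 1.17% of the counts of each library. Per kilobase of merged exons, Cx3cr1 was highest at 682 ± 42.9 CPM per kb (SD, n = 16), followed by P2ry12 at 496 ± 40.4 and Fcrls at 368 ± 17.9. Gpr34 (201), Tmem119 (190.4), Siglech (172), Olfml3 (166), P2ry13 (143) and Sall1 (121) lay lower and close together. The 8 pairs of neighbours were compared in the same 16 libraries that set the order. The tests therefore measure only the spread between libraries at a given length. By an exact sign-flip permutation test all 8 pairs differed. The largest adjusted p of that test was 0.00241, for Gpr34 over Tmem119, which held in 14 of 16 libraries. The order depended on the length used. Per kilobase of the canonical transcript Fcrls (693) stood above P2ry12 (664), and Siglech (385) moved above Tmem119 (276) and Gpr34 (247). Gpr34 and Tmem119 changed places, with Tmem119 the higher in 15 of 16 libraries. Sall1 (147) and P2ry13 (143) did not differ beyond their spread (exact permutation p = 0.123).

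**Figure D3:**
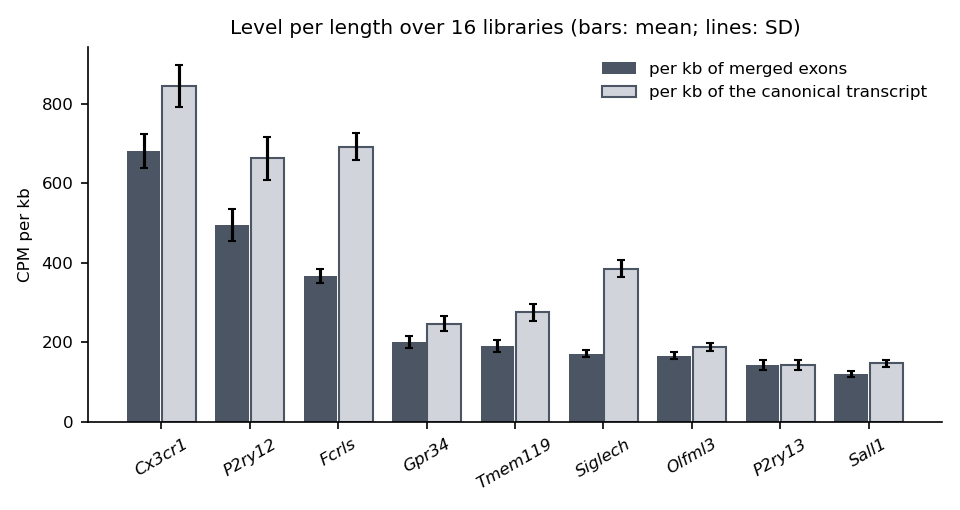
Mean level of each gene over 16 libraries in CPM per kilobase (vertical axis), by merged exons (dark bars) and by the canonical transcript (light bars), with SD as lines. Cx3cr1 is highest by both lengths, and the level of Siglech differs most between the lengths, from 172 to 385 CPM per kb.

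The members varied less between libraries of a group than most tested genes, but not all of them less than genes of like level. The within-group SD of log2 CPM ran from 0.0711 for Siglech to 0.121 for Tmem119, against a median of 0.239 over all tested genes, and the biological coefficient of variation from 6.85% to 8.85%. Part of this goes with level, since each member had at least 3694 counts in every library. Among genes within 1 log2 unit of the same level, 6.67% had a smaller SD than Siglech, 7.89% than Fcrls and 9.09% than Olfml3. The share was 29.4% for Cx3cr1 and 34.5% for Sall1, but 60.4% for P2ry13, 66.2% for P2ry12, 69.1% for Gpr34 and 74.9% for Tmem119. The homeostatic genes were thus not all steadier than genes of like level.

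Deviations of the members from their group means were positively correlated, as were those of many genes of like level. Of deviations of log2 CPM from the group means over 16 libraries, all 36 pairs of members had a Pearson r above 0, with a median of 0.663. Pairs of the 191 other genes at or above the level of the lowest member had a median r of 0.472, with 82.2% above 0, and 29.3% of those pairs had an r above the members' median. Pairs of 9402 genes with a mean log2 CPM of at least 3 had a median r of 0.0236, with 52.2% above 0. The r was past an adjusted p of 0.05 for 23 pairs by a permutation test within groups (100000 resamples, adjusted over the 36 pairs), and Spearman's rho for 23 as well. The highest was Siglech with Olfml3 (r = 0.927, adjusted p = 0.0018; rho = 0.885, adjusted p = 0.00661; r = 0.874 without KI_m 3 and KI_m 4, the 2 libraries farthest from the Siglech median). P2ry12 with Gpr34 reached r = 0.926 (adjusted p = 0.00072; rho = 0.9, adjusted p = 0.00132; r = 0.874 without KI_f 1 and KI_m 4) by the same permutation test. For Tmem119 with Cx3cr1 it gave r = 0.916 (adjusted p = 0.00072; rho = 0.938, adjusted p = 0.0012; r = 0.864 without KI_f 1 and WT_m 2). Of the 13 pairs that missed the threshold, 11 held P2ry13, Sall1 or both, and the lowest r was that of P2ry13 with Fcrls (0.189). P2ry13 and Sall1 went with each other (r = 0.773, adjusted p = 0.00432; rho = 0.771, adjusted p = 0.00655; r = 0.747 without WT_f 1 and KI_m 4, permutation). The neighbours P2ry12 and P2ry13 had r = 0.617 (adjusted p = 0.028; rho = 0.559, adjusted p = 0.0478), and the r of 0.444 without KI_f 1 and KI_m 4 shows that it rests in part on those libraries. Without the 2 farthest libraries 20 of the 36 pairs kept an r above 0.5.

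Because Siglech and Olfml3 varied most alike, the 250 bases before their RefSeq start sites are shown. Siglech is read on the plus strand (chr7:55417682-55417931) and Olfml3 on the minus strand (chr3:103645318-103645567), and neither stretch holds GAGGAA on either strand.
Siglech: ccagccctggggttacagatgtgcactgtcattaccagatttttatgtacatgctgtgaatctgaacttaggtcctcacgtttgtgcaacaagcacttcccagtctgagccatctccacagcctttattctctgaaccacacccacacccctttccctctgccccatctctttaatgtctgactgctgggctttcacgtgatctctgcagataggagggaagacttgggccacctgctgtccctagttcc
Olfml3: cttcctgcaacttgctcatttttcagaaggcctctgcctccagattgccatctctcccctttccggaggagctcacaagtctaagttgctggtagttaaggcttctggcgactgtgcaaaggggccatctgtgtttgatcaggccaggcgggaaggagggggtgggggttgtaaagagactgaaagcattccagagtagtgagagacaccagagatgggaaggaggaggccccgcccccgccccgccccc

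The co-variation depended on the scaling. When libraries were scaled by the geometric mean of 21 other microglia genes, chosen after seeing the data as an alternative here, the median r was 0.285 and 4 pairs passed the threshold: P2ry12, P2ry13 and Cx3cr1 each with Gpr34 (r = 0.845, 0.705 and 0.804), and Siglech with Olfml3 (r = 0.773). P2ry13 with Sall1 had r = 0.826 and a permutation p, adjusted, of 0.0577. The range then ran from -0.369 to 0.845, and 29 of 36 pairs stayed above 0. The within-group SD of Cx3cr1 fell from 0.0923 to 0.0426 and that of Siglech from 0.0711 to 0.0392 under this scaling, while that of P2ry13 was 0.103 and 0.118.

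**Figure D4:**
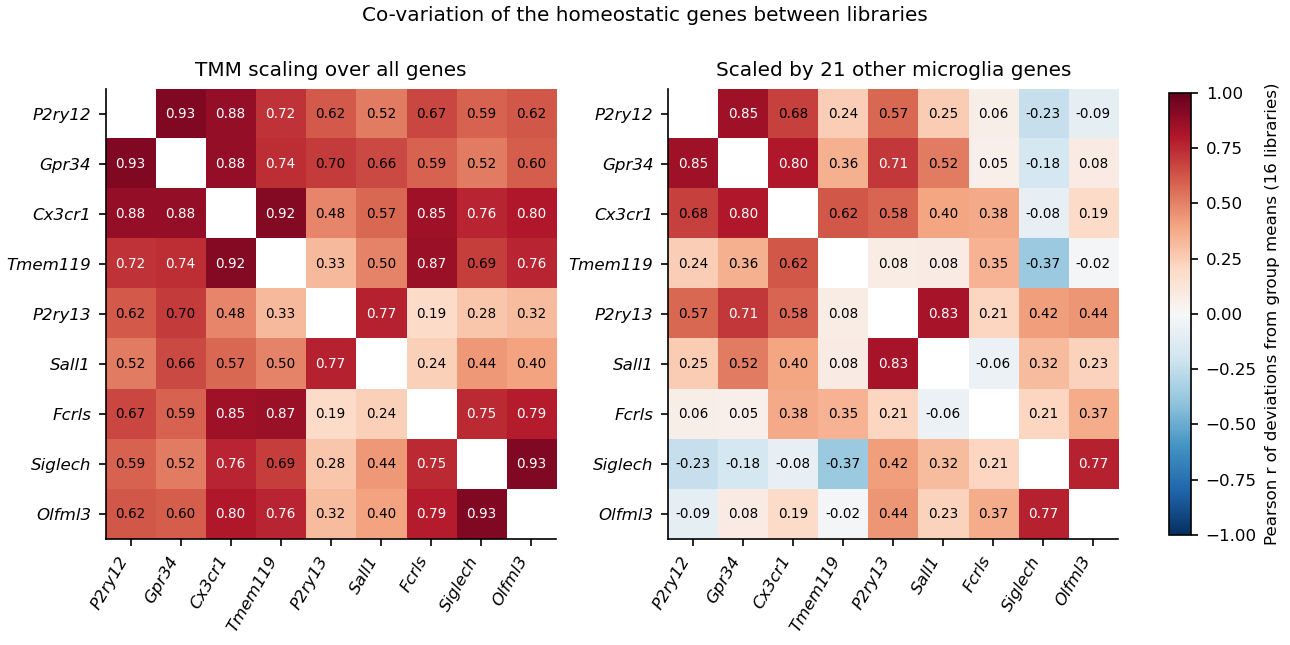
Pearson r (colour and printed value) of the deviations from group means over 16 libraries for each pair of genes, with TMM scaling (left) and with scaling by 21 other microglia genes (right). On the left all 36 pairs are above 0; on the right the block of P2ry12, Gpr34 and Cx3cr1 (0.68 to 0.85) and the pair Siglech and Olfml3 (0.77) remain among the highest.

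The libraries are numbered 1 to 16, and replicates 1 and 2 of every group have numbers 1 to 8 and replicates 3 and 4 numbers 9 to 16; the labels do not say whether this marks a batch. P2ry12 had a log2 fold change of -0.14 in libraries 9 to 16 against 1 to 8 (FDR = 0.13, edgeR), Gpr34 and Tmem119 of -0.11, Cx3cr1 of -0.09 and Fcrls of -0.08. These 5 of 9 had an unadjusted p below 0.05, as did 15.5% of all genes. None of the 9 was called (0.73% of all genes were) or had an FDR below 0.1 (3.83%). The genotype difference of P2ry13 was 0.16 within libraries 1 to 8 and 0.07 within 9 to 16, and that of Siglech -0.07 in both. Within each set of numbers all 36 pairs of members had an r above 0. P2ry12 and P2ry13 reached 0.826 in libraries 1 to 8 and 0.812 in 9 to 16, and P2ry12 and Gpr34 0.887 and 0.904. These deviations were from the means of whole groups, so the sets are not independent of each other. No such r is given for other genes of like level. With the deviations taken within each set of numbers the median r over the pairs was 0.765. Each group has only 2 libraries in a set, whose deviations are then equal and opposite. The 16 values are therefore mirrored and not independent.

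**Figure D5:**
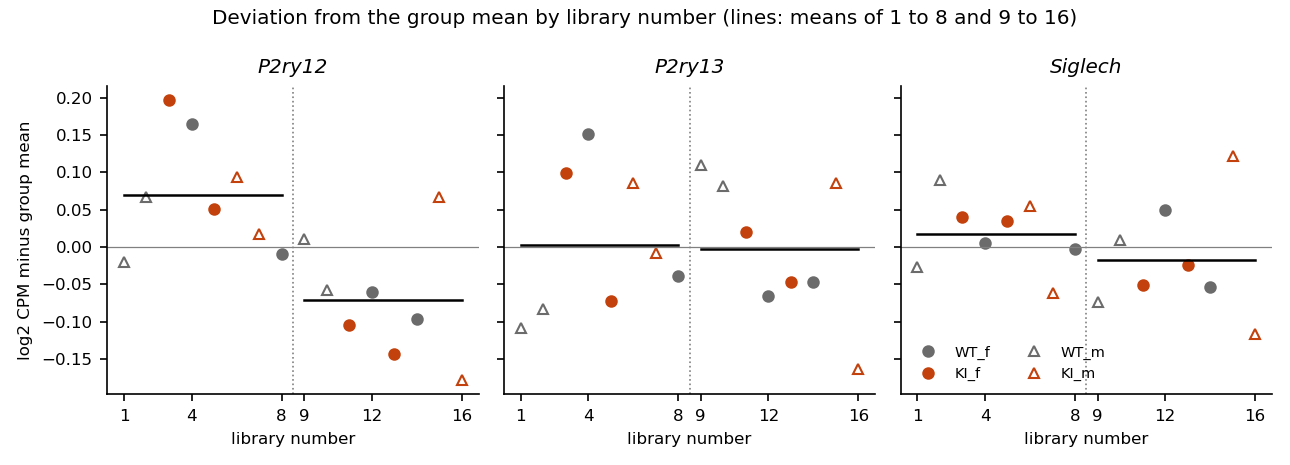
Log2 CPM minus the group mean (vertical axis) against library number (horizontal axis) for P2ry12, P2ry13 and Siglech, with circles for females, triangles for males, grey for WT and orange for KI; horizontal lines are the means of libraries 1 to 8 and 9 to 16. For P2ry12 the second line lies 0.14 below the first, and for P2ry13 the lines lie 0.0061 apart.

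The genes outside the 9 whose deviations were most like a member's were taken from 9402 genes with a mean log2 CPM of at least 3, and their r is the highest of that many, over 16 libraries that share depth and scaling. Cx3cr1 was most like Slc2a5, the fructose transporter of microglia (r = 0.961), and P3h2 (0.948). Tmem119 was most like Adgrg1, a receptor of microglia (0.939), and Ddb1 (0.927). Siglech was most like Cyfip1 (0.94) and Man1a2 (0.939), Olfml3 like Sema4b (0.951) and Wdr1 (0.926), and Fcrls like Bzw1 (0.957) and Psmc3 (0.934). Gpr34 was most like Gabpa (0.954) and Polr2b (0.908), and P2ry12 like Magt1 (0.943) and Pa2g4 (0.932). Sall1 was most like Samsn1 (0.91) and Apbb1ip (0.897), and P2ry13, the least matched, like Mfap3 (0.854) and Alg12 (0.836). The best-ranked fellow member was 2nd of 9410 genes for Gpr34 (P2ry12) and for Olfml3 (Siglech), 5th for Tmem119 (Cx3cr1) and for Siglech (Olfml3), and 52nd for Fcrls (Tmem119). Each member had 1 to 3 fellow members among its 100 most alike genes.

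Other genes of the programme were read from the same fit. Of 21 related microglia genes, such as Trem2 and the C1q genes, 0 were called and 2 had an unadjusted p below 0.05, with a median log2 fold change of -0.05. The smallest p values were those of C1qb (-0.12, FDR = 0.116), Crybb1 (-0.16, FDR = 0.179) and C1qa (-0.09, FDR = 0.296). Of 17 regulators of identity, which include the TGF-beta and CSF1 receptors, 0 were called by both thresholds, with a median of -0.06. At an FDR below 0.1 alone Cebpa, a myeloid transcription factor, was lower by a log2 fold change of -0.41 (FDR = 0.00447) and Runx1, a factor of myeloid development, by -0.20 (FDR = 0.0843), while Irf8 had -0.12 (FDR = 0.125). Within females Cebpa was called lower, at -0.56 (FDR = 0.00451). Within males 0 of the 17 were called, where 0.252% of all genes were, and Cebpa had -0.26 (FDR = 0.366).

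Of 10 signalling partners of the receptors, 1 was called: Nt5e, the ectoenzyme that makes adenosine from AMP, was higher by a log2 fold change of 0.66 (SE 0.208, FDR = 0.0528) at a mean of 2.65 CPM. Cx3cl1, the ligand of Cx3cr1, which neurons make, was higher by 0.44 at an FDR of 0.0225, under the fold threshold, at 25.1 CPM. Pla1a, which makes lysophosphatidylserine, had -0.84 (FDR = 0.208) at 0.624 CPM. Within females Cx3cl1 was called higher (0.52, FDR = 0.0768) and Pla1a lower (-1.76, FDR = 0.0333). Within males 0 of the 10 were called, with Cx3cl1 at 0.37 (FDR = 0.409) and Pla1a at 0.26 (FDR = 0.877). Of 17 relatives of the members by family, 12 were tested and 0 were called. Sall2 was higher by 0.22 at an FDR of 0.0101 alone, and Siglec1 (0.35, FDR = 0.154) and Cd33 (-0.10, FDR = 0.229) were next by p. Within females P2ry14, a receptor for UDP-glucose (-1.27, FDR = 0.0713), and P2ry10 (-1.09, FDR = 0.089) were called lower at means of 0.938 and 1.11 CPM. Within males 0 of the 12 were called, with P2ry14 at 0.18 (FDR = 0.9) and P2ry10 at 0.27 (FDR = 0.819).

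The remaining facts of the libraries bear on all these values. Library totals ran from 9052932 to 18117286 counts. Xist, from the inactive X, stood between 547 and 862 CPM in females and did not pass 0.448 in males. App, the edited gene, stood at 371 to 462 CPM in WT and 388 to 423 in KI, and its counts do not show which allele is present. Neuron markers summed to 403 to 550.1 CPM in WT and 488 to 712 in KI (9 genes tested, 0 called, 4 at an FDR below 0.1, Snap25 the first by p), neuroblast markers to 25.1 to 39.4 and 29.9 to 64.5 (2 of 5 called), and oligodendrocyte markers to 231 to 428 and 282 to 413 (1 of 6 called). Border macrophage markers summed to 1213 to 1619 CPM in WT and 1293 to 1694 in KI, with 0 of 9 called, astrocyte markers to 527 to 1049 and 439 to 714, and endothelial markers to 53.1 to 187 and 71.2 to 103, with 0 called of 6 and 7 over both sexes. These counts join opposite signs. Within females 6 of 7 endothelial markers (median log2 fold change -0.97), 2 of 6 astrocyte markers (-0.58) and 1 of 5 pericyte and fibroblast markers (-0.46) were called lower in KI, and 3 of 9 neuron markers higher. Within males the medians of the endothelial, astrocyte, and pericyte and fibroblast lists were 0.72, 0.15 and 0.36, with 1 endothelial marker called higher. The endothelial sum ran from 84.0 to 187 CPM in WT_f, 74.0 to 92.7 in KI_f, 53.1 to 65.7 in WT_m and 71.2 to 103 in KI_m. Over both sexes pericyte and fibroblast, monocyte and neutrophil markers reached at most 86.1, 32.6 and 26.4 CPM with 0 called, and lymphocyte and red blood cell markers 1.04 and 3.34 CPM with 0 tested. Immediate early genes, known to respond to handling of cells, were called lower in KI in 9 of 10 (summed 4816 to 12226 CPM in WT, 1927 to 5103 in KI), and heat shock genes higher in 3 of 4 (203 to 2787 and 2266 to 2976). Within females 9 of 10 and 3 of 4 were called, at median log2 fold changes of -1.81 and 1.88. Within males 0 of either list were called, at medians of -0.64 and 0.63. The part of these lists in the members' values was not tested beyond the correlations that follow. Of 54 relations of a member's deviations to library total, ribosomal share or the neuron, border macrophage, immediate early or heat shock sum, 0 had an adjusted p below 0.05 in permutation tests. With the neuron sum all members but P2ry13 (r = 0.0033) had a negative r, P2ry12 the weakest of them at -0.392. The strongest was Olfml3 with the neuron sum (r = -0.731, adjusted p = 0.325; rho = -0.626, adjusted p = 0.313; r = -0.535 without KI_m 3 and WT_m 2, n = 16).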

How the data were processed

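Microglia of 16 olfactory bulb libraries were analysed. The deposited table holds raw counts per gene, all whole numbers, which the authors made with STAR from paired-end reads on GRCm39 plus a human App sequence. The strand setting is not given in the sources used here. A reporting form mentions technical replicates, and the table has 1 column per library and none for them.

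Kept were 18227 of 57010 genes, those with 5 counts or more in 8 libraries (50%). Analyses used R 4.3.3, edgeR 4.0.16 (TMM, quasi-likelihood test, Benjamini-Hochberg FDR over all tested genes), with DESeq2 1.42.0 and limma 3.58.1 as alternatives, and scipy 1.17.1 for permutations. A call needs an FDR under 0.1 together with a log2 fold change beyond 0.5 in size. Genotype was tested with sex as a term over all 16 libraries; contrasts within sexes and the interaction came from 1 fit of the 4 groups. Log2 CPM carries a prior count of 2. Totals of 9052932 to 18117286 counts gave each member at least 3694 counts in a library, so the spread between libraries sets the precision. Positions and lengths came from a later GENCODE release on GRCm39, which matched 96.8% of symbols; Fcrls is named Fcrl2 there. The procedure was tested on simulated data. The members and lists were chosen with earlier results of these data known. All 9 members are named; of each related list, the called genes and the 3 of smallest p; of cell type lists, counts with at most 3 examples; and for each member the 2 genes most like it.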

Additional observations from a re-analysis of the deposited data

Results flagged for a closer look

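In 36 sets of 4 libraries (9 genes in 4 groups), a library stood apart in 3 by the ratio of its gap from the nearest other to the whole range, at a limit of 0.829; chance passes this limit in about 1 of 20 sets, or 1.8 of 36. P2ry13 was highest in WT_f 1, with a ratio of 0.877. Cx3cr1 was highest in KI_f 1, with a ratio of 0.889, and so was Gpr34, with a ratio of 0.840. Without KI_f 1 the genotype estimates of Cx3cr1 and Gpr34 were 0.04 and 0.06 on the log2 scale, and without WT_f 1 that of P2ry13 was 0.14.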

How the results depend on the processing

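In 29 other settings of genotype over both sexes, none of the 9 genes was called. Some of these settings read the main fit at other thresholds. The fits within sexes, of the interaction and of sex gave 0 calls too. All genes called ranged from 830 (at least 10 counts in every library) to 2692 (FDR alone), against 1574, with 1107 at an FDR of 0.05. The replicate block gave 1562 calls and 0 members. Same-numbered libraries correlated from -0.33 to 0.292, 8 of 24 pairs above 0.1, and 8 of 16 libraries correlated best with their own number. No chance level is given for these counts, so they do not decide whether a number marks a pair. The main fit did not take the numbers as pairs. Leaving out 1 library moved Tmem119 between -0.013 and 0.0457 (negative without KI_f 1 or WT_m 3) and Fcrls between -0.0071 and 0.0232 (negative without KI_f 1, KI_m 1, WT_f 4 or WT_m 3). Scaling by the related microglia genes shifted the median of all genes by 0.039 and gave FDRs of 0.0972 for P2ry12, 0.0385 for Cx3cr1 and 0.097 for Gpr34, at log2 fold changes of 0.11, 0.09 and 0.12. Pairs of members past the threshold numbered 23, and 4 under that scaling. They numbered 14 with deviations within library numbers 1 to 8 and 9 to 16, where mirrored values leave the permutation fewer arrangements. With 1 library left out they numbered 15 (without KI_f 1) to 31 (without WT_m 3). The alternatives for co-variation and length were added after seeing the data.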
